A study of Mus musculus with 12 samples.

Results

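Integrins are adhesion receptors made of 1 alpha chain and 1 beta chain, and the pair that a T cell assembles sets which ligand it can hold. The 10 chain genes described here were taken by name from a table of 17523 genes measured in splenic CD4+ T cells. They were the alpha chains Itga1, Itga4, Itga6, Itgae, Itgal and Itgav and the beta chains Itgb1, Itgb2, Itgb7 and Itgb8. All 10 were listed in the table. All 10 also passed the filter on low values (5 or more normalized counts in 3 or more of the libraries), which left 15587 genes to test.

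The cells were taken from spleens of unimmunized Gr/fr mice on the C57BL/6 background, and every group carried the same alleles. The Gr allele places iCre and BFP behind Csf2 under its own promoter, and the fr allele is a Rosa26 eYFP reporter that Cre switches on for good, so YFP marks a cell that makes GM-CSF or once made it. CD4+ T cells were sorted by surface markers that included CD44 into naïve cells (CD44-) and effector memory cells (TEM, CD44hi), each divided by YFP into 2 fractions, which gave 4 groups of 3 libraries and 12 in all. Mice of 2 to 3 months were used for cell sorting, the zygosity of the alleles was not given for these libraries, and the labels do not tie a library to a mouse.

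In T cells, Itgal pairs with Itgb2 to form LFA-1, the receptor for ICAMs. Itga4 pairs with Itgb1 to bind VCAM-1 and fibronectin, or with Itgb7 to bind MAdCAM-1 of gut venules, and Itgae also pairs with Itgb7, to bind E-cadherin. Itga1 and Itga6 pair with Itgb1 as receptors for collagen and laminin. Itgav joins Itgb8 in a receptor that releases TGF-beta from its latent form. In lymphocytes the exchange of homing integrins between naïve and memory cells goes with a change in the tissues they enter.

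A library held between 40974124 and 57822269 reads on genes. The sorting gene Cd44 followed the labels, between 2334 and 3372 normalized counts in the 6 naïve libraries and between 21778 and 29383 in the 6 TEM libraries. Cd4 was between 36078 and 67471 in every library. The libraries also held transcripts listed as markers of other cells, and the cells they came from were not determined. The 10 conventional dendritic cell markers summed to 135397 to 282359 normalized counts in YFP- TEM cells. Their sum was 9114 to 23157 in YFP+ TEM cells and 2687 to 9445 in naïve cells. One library stood apart from its group, YFP+ naïve replicate 2, in which the macrophage and monocyte markers summed to 5687 against 934 and 470 in the other YFP+ naïve libraries, and platelet and erythroid markers to 2779 against 667 and 116.

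Promoter sequence is shown for the chain that differed most between YFP fractions, Itga1, and for Itga4 and Itgb1, whose products pair and whose levels were both higher in TEM cells. RefSeq on GRCm38.p6 gave a start site window for 6 of the 10 members, namely these 3 with Itgav, Itgb7 and Itgb8. Each line is the 250 bases before the start, 5′ to 3′ on the strand of the gene. Capitals mark matches on either strand to the letters TGTGGT (a RUNX core), GGTGTG (a T-box core) or GGGCGG (a GC box). The windows are chr13:115101965-115102214 on the minus strand for Itga1, chr2:79255176-79255425 on the plus strand for Itga4 and chr8:128685404-128685653 on the plus strand for Itgb1. Each ends just before the first base of its gene. Itga1 (Entrez 109700) spans positions 114958079 to 115101964 of chromosome 13. Itga4 (Entrez 16401) spans 79255426 to 79333114 of chromosome 2, and Itgb1 (Entrez 16412) spans 128685654 to 128733579 of chromosome 8.
Itga1: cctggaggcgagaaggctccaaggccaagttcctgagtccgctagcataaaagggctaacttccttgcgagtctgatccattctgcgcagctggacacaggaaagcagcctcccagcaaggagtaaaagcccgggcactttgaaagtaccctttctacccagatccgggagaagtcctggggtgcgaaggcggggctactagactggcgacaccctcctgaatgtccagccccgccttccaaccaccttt
Itga4: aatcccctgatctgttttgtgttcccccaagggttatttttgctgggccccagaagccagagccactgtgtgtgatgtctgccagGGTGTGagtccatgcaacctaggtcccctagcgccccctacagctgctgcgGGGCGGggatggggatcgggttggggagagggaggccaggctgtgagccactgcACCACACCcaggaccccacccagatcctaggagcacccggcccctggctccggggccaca
Itgb1: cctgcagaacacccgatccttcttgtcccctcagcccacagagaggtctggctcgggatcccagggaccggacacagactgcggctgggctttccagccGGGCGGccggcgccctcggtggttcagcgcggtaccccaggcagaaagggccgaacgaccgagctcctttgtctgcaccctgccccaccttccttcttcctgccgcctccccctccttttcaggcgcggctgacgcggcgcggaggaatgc

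The Itga1 window held none of the 3 motifs. The Itga4 window held all 3, with 2 T-box matches at 165 and 58 bases before the start, the second of them overlapping the RUNX match at 60, and 1 GC box at 114. The Itgb1 window held 1 GC box, 151 bases before the start. Among 32851 mouse windows of the same length, TGTGGT was present in 14%, GGTGTG in 16.3% and GGGCGG in 32.7%, so a match is common and is given as a description of the letters only. Of the other windows, those of Itgav and Itgb7 each held 1 GGTGTG, but both lie within the annotated span of their gene. The Itgb8 window held none of the 3. GC content was 57.6% for Itga1, 64% for Itga4 and 68% for Itgb1.

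Effector memory cells were first compared with naïve cells, within each YFP fraction, to see which chains set the 2 states apart. In both fractions 8 of the 10 members were higher in TEM cells, 1 was lower and 1 did not pass the test. The test was limma on log2(normalized count + 1), and calls needed an adjusted p (Benjamini-Hochberg, over all tested genes) of at most 0.05. The background was high: 49.8% of all tested genes were called between TEM and naïve cells in the YFP- fraction, 29.9% of them as higher and 19.9% as lower. In the YFP+ fraction it was 41.4%, with 24.7% higher and 16.7% lower (all shares of the tested genes). The median log2 fold change of the members was 1.62 in YFP- and 1.45 in YFP+ cells, beside 0.05 and 0.03 over all tested genes. The 3 libraries of each group did not overlap for 9 of the 10 members in either fraction, while this held for 59% and 48.7% of tested genes. The members were chosen with earlier results of these data known, so these values are a description and no test of the family. Of 13 other integrin chains tested, 7 were higher and 1 lower in TEM cells of the YFP- fraction. In the YFP+ fraction 6 were higher and 2 lower.

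**Figure D1:**
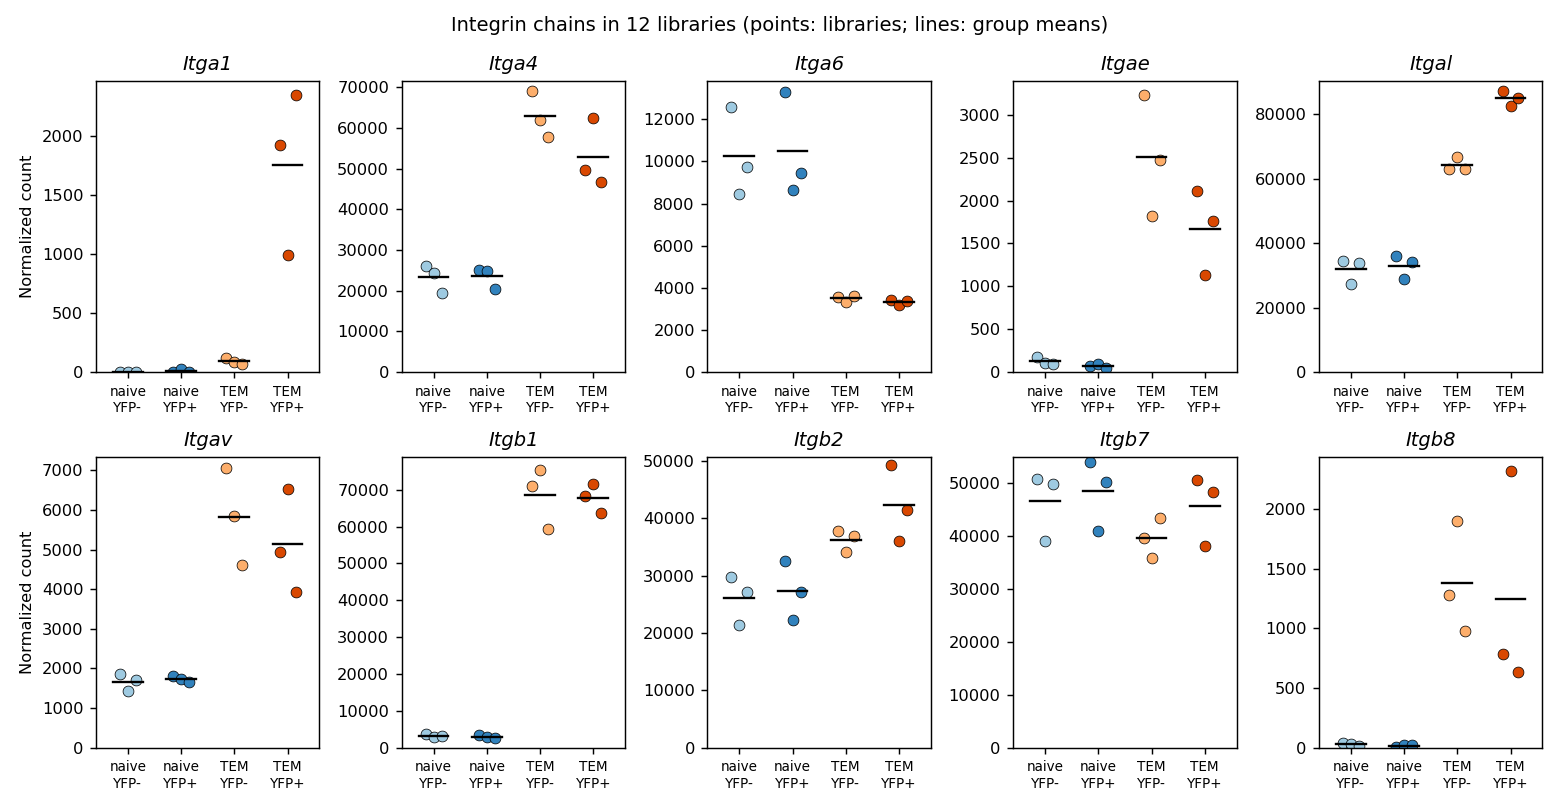
Normalized counts (vertical axes, each starting at 0 with its own scale) of the 10 integrin chains in the 12 libraries, by group; points are libraries and lines are means of 3. Itgb1 lies between 2671 and 3657 in naïve and between 59451 and 75336 in TEM libraries, Itga6 runs the other way, and Itga1 is high only in the 3 YFP+ TEM libraries among the 12.

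Itgb1, the shared partner of Itga1, Itga4, Itga6 and Itgav, changed from one of the minor beta chains to an abundant one. Normalized counts were 3657, 3000 and 3177 in YFP- naïve cells (replicates 1 to 3) and 71079, 75336 and 59451 in YFP- TEM cells, which is 20.9-fold between the means. In the YFP+ fraction they were 3416, 3027 and 2671 against 68290, 71595 and 63761, a 22.3-fold difference. Every TEM library lay far above every naïve library. The log2 fold changes were 4.39 ± 0.12 (SE, n = 3 per group) and 4.49 ± 0.12, with adjusted p of 3.26e-10 and 2.29e-10 in limma.

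Itgb7, the partner of Itga4 and Itgae, was the member that did not pass. It had 50808, 38987 and 49789 normalized counts in YFP- naïve and 39603, 35822 and 43383 in YFP- TEM cells. In YFP+ cells it had 54053, 40936 and 50251 in the naïve and 50573, 38088 and 48327 in the TEM libraries. The groups overlapped in both fractions. The log2 fold changes were -0.23 (95% interval -0.57 to 0.11; adjusted p = 0.252 in limma) and -0.09 (-0.42 to 0.25; adjusted p = 0.696), and with quantile normalization both turned positive, at 0.16 and 0.26. With the replicate number as a block, Itgb7 was called as lower in YFP- TEM cells (limma adjusted p = 0.0207).

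Itgb2, the beta chain of LFA-1, rose least among the members called. It went from 29735, 21379 and 27128 to 37748, 34066 and 36964 in the YFP- fraction and from 32547, 22283 and 27196 to 49303, 36083 and 41412 in the YFP+ fraction. The naïve and TEM libraries did not overlap in either. The log2 fold changes were 0.49 ± 0.16 (SE; adjusted p = 0.0258 in limma) and 0.63 ± 0.16 (adjusted p = 0.00799). In the YFP- fraction the call was lost when naïve replicate 2, TEM replicate 1 or TEM replicate 3 was left out, with adjusted p of 0.11, 0.0744 and 0.0683 from limma. Conventional dendritic cell markers were also higher in TEM cells, 10 of 10 in the YFP- and 8 of 10 in the YFP+ fraction. Of all tested genes, 29.9% and 24.7% were higher there. The part of such cells in the Itgb2 values was not tested.

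Itgb8, which with Itgav activates latent TGF-beta, had a low level in naïve cells. It gave 43.8, 30.8 and 18.4 normalized counts in YFP- naïve and 9.89, 21.6 and 22.3 in YFP+ naïve libraries. In TEM cells it reached 1280, 1901 and 975 in the YFP- and 785, 2324 and 639 in the YFP+ libraries, so that replicate 2 was the highest of its group in both fractions. The fold between means was 44.7 and 69.6, on the log2 scale 5.46 ± 0.49 and 5.88 ± 0.49 (SE), with adjusted p of 1.77e-06 and 1.40e-06 in limma.

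Among the alpha chains, Itgal was 2.02-fold higher in YFP- and 2.57-fold higher in YFP+ TEM cells. The alpha chain of LFA-1 had 34331, 27404 and 33802 normalized counts in YFP- and 36059, 28970 and 34211 in YFP+ naïve libraries. TEM libraries gave 62959, 66836 and 63166 without YFP and 87374, 82572 and 85222 with it. All TEM libraries lay above all naïve ones. The log2 fold change was 1.02 ± 0.12 (SE; adjusted p = 1.86e-05 in limma) in the YFP- and 1.37 ± 0.12 (adjusted p = 2.45e-06) in the YFP+ fraction.

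Itga4 had 26016, 24331 and 19535 normalized counts in YFP- naïve and 25063, 24943 and 20425 in YFP+ naïve cells. It had 69027, 62013 and 57713 in YFP- TEM and 49705, 62306 and 46679 in YFP+ TEM cells. Naïve and TEM libraries were apart in both fractions, by 1.44 ± 0.15 (SE; adjusted p = 5.10e-06 in limma) and 1.17 ± 0.15 (adjusted p = 4.41e-05) on the log2 scale. Itgav, the partner of Itgb8 and Itgb1, was between 1435 and 1868 in the naïve and between 3941 and 7061 in the TEM libraries, and its log2 fold changes were 1.79 ± 0.18 (adjusted p = 4.71e-06) and 1.54 ± 0.18 (adjusted p = 2.44e-05).

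Itgae, the E-cadherin receptor chain known from intraepithelial and regulatory T cells, was low in naïve cells and 23.7-fold higher in TEM cells of the YFP+ fraction. Naïve libraries gave 174, 110 and 93.3 normalized counts without YFP and 71.7, 92.5 and 47.4 with it. TEM libraries had 3235, 1822 and 2476 in the YFP- and 2116, 1129 and 1767 in the YFP+ fraction. The log2 fold changes were 4.32 ± 0.32 (SE; adjusted p = 3.63e-07 in limma) and 4.55 ± 0.32 (adjusted p = 3.01e-07). Regulatory T cell markers moved with Itgae and Itgb8: 9 of the 10 on the list rose and 1, Gpr83, fell between naïve and TEM cells in both fractions, and their sum was 12623 to 18218 in naïve and 71113 to 112921 in TEM libraries. None of these regulatory markers was at or under the floor of 3 reads in a group. Of all tested genes, 29.9% (YFP-) and 24.7% (YFP+) were higher in TEM cells. Dendritic cell lists rose as well. In YFP- cells 10 of 10 conventional and 9 of 10 plasmacytoid markers were higher. In YFP+ cells 8 and 6 were higher, and 1 plasmacytoid marker was lower. The part of any of these cell types in the changes of Itgae and Itgb8 was not tested, and in bulk RNA fewer cells of a type and less RNA per cell cannot be told apart.

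Itga6, the laminin receptor chain, was the 1 member that fell. It had 12591, 8433 and 9743 normalized counts in YFP- naïve and 13312, 8659 and 9456 in YFP+ naïve libraries. It had 3559, 3327 and 3613 in YFP- TEM and 3398, 3171 and 3395 in YFP+ TEM libraries. All 6 TEM libraries lay below all 6 naïve ones, and the log2 fold changes were -1.53 ± 0.16 (SE; adjusted p = 5.60e-06 in limma) and -1.63 ± 0.16 (adjusted p = 4.91e-06).

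Itga1, the collagen receptor chain, was at or near 0 in naïve cells. The YFP- naïve libraries had 0, 2.12 and 0 normalized counts, which is at or under the floor of 3 reads per library, and the YFP+ naïve libraries had 0, 28.5 and 0.93. The value of 28.5 belongs to the naïve library that stood apart in its macrophage, platelet and erythroid markers. YFP- TEM cells had 117, 84.5 and 69.3 normalized counts, at least 26.9-fold higher than the floor of the YFP- naïve group, with a limma adjusted p of 0.000289. YFP+ TEM cells had 1924, 990 and 2345, and their log2 fold change against YFP+ naïve cells was 8.74 ± 0.98 (SE; adjusted p = 1.71e-05 in limma).

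**Figure D2:**
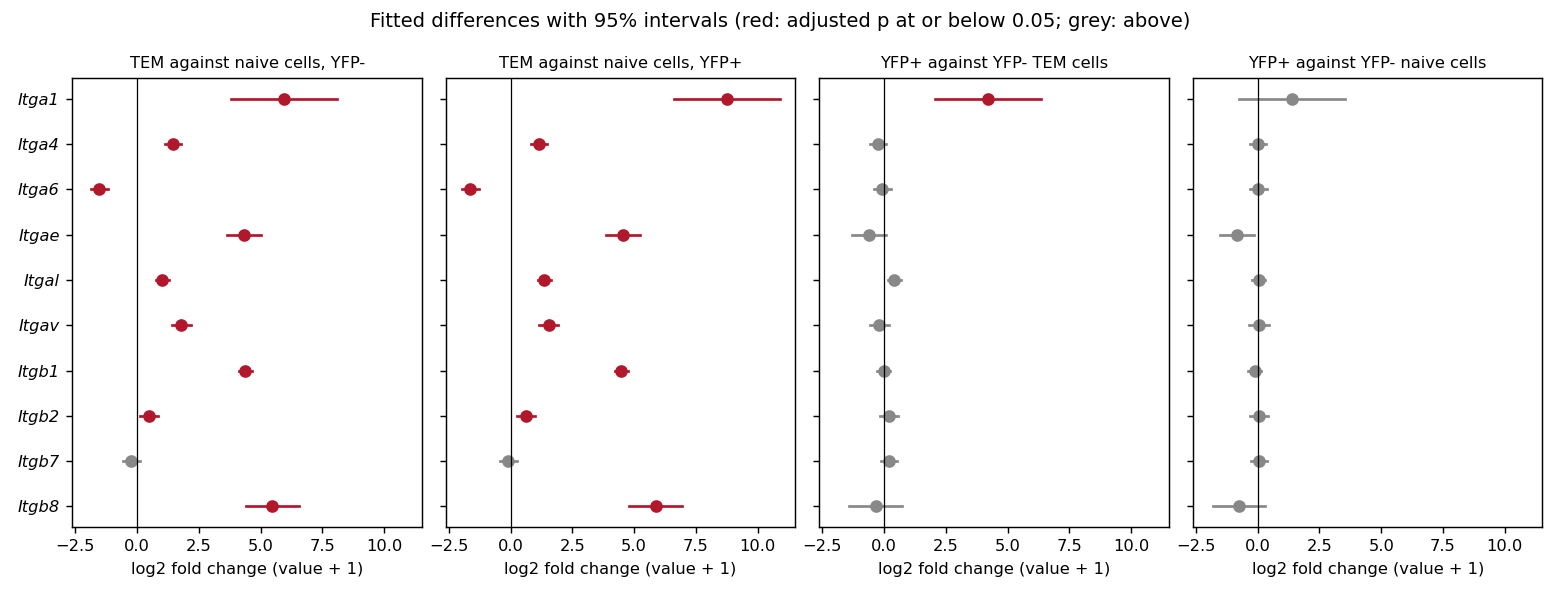
Log2 fold change of log2(normalized count + 1) for each chain (points) with its 95% interval (lines) in 4 comparisons of 3 against 3 libraries; red marks an adjusted p of 0.05 or less in limma. In both comparisons of TEM with naïve cells 9 of the 10 chains are red, with Itga6 as the one to the left of 0, while Itga1 is the one red chain between YFP+ and YFP- TEM cells.

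The next comparison asked how TEM cells that YFP marks as making or having made GM-CSF differ in their integrins from unmarked TEM cells. The paper found GM-CSF in a small part of YFP- CD4+ T cells, but only after stimulation outside the body. Whether any unmarked TEM cells had made GM-CSF before the sort was not tested. Of the 10 members, 1 was called, Itga1, as higher in YFP+ cells, where 6.97% of all tested genes were called, 2.30% of the tested genes as higher and 4.67% as lower. A count of 1 in 10 is near that background and is no result about the members as a group. The median log2 fold change of the members was -0.04, beside -0.01 over all tested genes. Libraries of the YFP fractions did not overlap for 2 members, Itga1 and Itgal, and for 25% of tested genes. These comparisons use the same TEM libraries as those with naïve cells, so the values are not independent of them.

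Itga1 was 19.4-fold higher in the mean of YFP+ than of YFP- TEM cells, with 1924, 990 and 2345 against 117, 84.5 and 69.3 normalized counts. The lowest YFP+ library was still far above the highest YFP- library. The log2 fold change was 4.21 ± 0.98 (SE, n = 3 per group; 95% interval 2.07 to 6.35) with an adjusted p of 0.0204 in limma. The call rested on few libraries and on the scale: leaving out any TEM library other than YFP+ replicate 2 raised the adjusted p to between 0.054 and 0.0874, with the log2 fold change between 3.95 and 4.41, and a pseudocount of 0.1 raised it to 0.228. The spread that limma shares over the groups included the value of 28.5 in YFP+ naïve replicate 2, and without that library the log2 fold change of Itga1 was the same and its adjusted p was 0.000417.

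Markers of other lymphocytes moved with Itga1. Of the invariant NKT and gamma delta T cell list, 4 of the 5 genes tested were higher in YFP+ TEM cells, among them Trav11, the variable segment of the invariant NKT receptor, by 3.89, and Zbtb16, a transcription factor of innate-like T cells, by 3.25 on the log2 scale (limma adjusted p = 0.000174 and 0.00854). The sum of the 6 listed genes was 8713, 4143 and 8676 in YFP+ TEM replicates 1 to 3 and 910 to 1225 in YFP- TEM libraries, so the YFP+ library lowest in Itga1 was also the lowest in this sum. Of the NK cell list, 3 of 5 tested genes were higher, among them Klrb1c by 3.03 (limma adjusted p = 0.00365), and its sum was 1450 to 2179 against 619 to 844. In YFP+ TEM cells none of the listed genes of either list was at or under the floor, while 1 of each list was in YFP- TEM cells. The part of such cells in the Itga1 difference was not tested. Pelo, which lies within Itga1, had 506 to 579 normalized counts in YFP- and 673 to 731 in YFP+ TEM cells, a log2 difference of 0.33 (adjusted p = 0.115 in limma).

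Itgal was 1.32-fold higher in the mean of YFP+ than of YFP- TEM cells, with 82572 to 87374 against 62959 to 66836 normalized counts. The 2 groups did not overlap, but the difference missed the threshold, at 0.40 ± 0.12 (SE; 95% interval 0.14 to 0.67; adjusted p = 0.0731 in limma). With 1 TEM library left out the adjusted p was 0.112 to 0.231. The difference passed without YFP+ naïve replicate 2 (adjusted p = 0.0479), with the replicate number as a block (0.0153), with TMM factors (0.0305), with the 6 TEM libraries alone (0.0376), in edgeR (0.0266) and in DESeq2 (0.00333), the first 4 of these fits being limma.

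The other members gave no call between the TEM fractions, and their intervals show what could have been missed. For Itgb1 the log2 fold change was -0.01 (95% interval -0.27 to 0.25) and turned to 0.02 with TMM factors. It was -0.26 (-0.58 to 0.06) for Itga4, -0.08 (-0.42 to 0.27) for Itga6, -0.19 (-0.59 to 0.20) for Itgav, 0.21 (-0.15 to 0.57) for Itgb2 and 0.20 (-0.14 to 0.54) for Itgb7. Itgae (-0.60; -1.29 to 0.09) and Itgb8 (-0.34; -1.41 to 0.73) had wide intervals. Foxp3, the defining factor of regulatory T cells, was lower in YFP+ TEM cells by 0.87 on the log2 scale (limma adjusted p = 0.045), and the sum of the regulatory T cell list was 71113 to 86296 in YFP+ and 94497 to 112921 in YFP- TEM libraries, with 1 of its 10 genes called by limma. Of this list edgeR called 0 genes and DESeq2 called 2, Foxp3 and Lrrc32.

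In naïve cells, 0 of the 10 members were called between YFP fractions by limma, where 0.00642% of tested genes were called. edgeR and DESeq2 also called 0 members. Counts at an unadjusted p under 0.05 in limma are given without a background, since the share of all tested genes under it was not computed. At that threshold 1 member passed. That member was Itgae, which had 174, 110 and 93.3 normalized counts in YFP- and 71.7, 92.5 and 47.4 in YFP+ naïve cells. Each YFP+ library lay below each YFP- library, which held for this 1 member and for 5.38% of tested genes, and the log2 fold change was -0.83 ± 0.32 (SE; limma adjusted p = 1, unadjusted p = 0.0229). CD8 T cell markers, Cd8a and Cd8b1, summed to 1166 to 1321 in YFP- and 500 to 608 in YFP+ naïve libraries, and regulatory T cell markers to 15150 to 18218 and 12623 to 14453, with 0 genes of either list called by limma (1 and 4 with an unadjusted p under 0.05); DESeq2 called Cd8b1. Their part in the Itgae values was not tested. The intervals of the abundant chains were narrow, such as -0.37 to 0.15 for Itgb1 and -0.21 to 0.32 for Itgal.

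The interaction, which is the YFP difference in TEM cells minus that in naïve cells, was called for 0 of the 10 members by limma, none of them with an unadjusted p under 0.05, and for 3.55% of tested genes. edgeR and DESeq2 called 0 as well. For Itga1 the estimate was 2.81 ± 1.39 (SE; adjusted p = 0.49) in limma, 0.73 (adjusted p = 0.994) in edgeR and 0.52 (adjusted p = 1) in DESeq2, and since its YFP- naïve libraries lay at or under the floor, the limma value depends on the pseudocount. It passed in limma without YFP+ naïve replicate 2 (adjusted p = 0.0129), where both naïve groups lay at or under the floor, so no size is given. For Itgal it was 0.35 ± 0.17 (adjusted p = 0.49).

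Levels were compared between chains as normalized counts per kb of exon, as a share of the 18 alpha or 7 beta chains in the table. Among the alpha chains, Itgal led in every group, with 59.5% (YFP-) and 59.7% (YFP+) of the alpha chain level in naïve cells and 53.8% and 69.4% in TEM cells. Itga4 followed with 20.5, 20.0, 24.7 and 20.3%. These shares depend on the lengths used, which were unions of annotated exons, 6569 bases for Itgal and 13978 for Itga4. The transcripts expressed were not determined. Before division by length, the 2 chains were close in YFP- TEM cells, at means of 64320 (Itgal) and 62918 (Itga4) normalized counts. The gap between their shares in that group therefore rests on the lengths. Itga6 was next among the members in naïve cells, with 13.9 and 13.6%, where its libraries overlapped those of Itga4 in the YFP+ fraction, and held 2.13 and 1.97% in TEM cells. Of the members below Itga4 in TEM cells, Itgae, Itgav and Itga6 each held between 1.96 and 2.99%, and neighbours overlapped in their libraries for Itgae and Itgav in the YFP- and for all 3 in the YFP+ fraction. Itga1 reached 0.51% in YFP+ TEM cells. The 6 members together made up 86.6% of the alpha chain level in YFP- TEM cells and between 95.4 and 96.7% in the other groups; Itgax, a dendritic cell chain that is no member, was at a mean of 1666 normalized counts per kb in YFP- TEM cells, above Itgae at 548.

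The beta chains among the members changed their order. In naïve cells Itgb7 held 60.6 and 60.2% of the beta chain level, Itgb2 30.8 and 30.7% and Itgb1 2.92 and 2.59%, with each of these chains apart from the next. Itgb3, no member, lay between Itgb2 and Itgb1 there, at means of 1559 (YFP-) and 1864 (YFP+) normalized counts per kb against 803 and 744 for Itgb1. In TEM cells Itgb1 held 38.4% (YFP-) and 34.3% (YFP+), Itgb7 32.6 and 33.6%, and Itgb2 27.1 and 28.2%. There Itgb1 and Itgb7 overlapped in both fractions, and Itgb7 and Itgb2 in the YFP+ fraction. The overlap of Itgb1 with Itgb7 rests on the exon lengths used, 4081 and 2770 bases. Before division by length, Itgb1 had 59451 to 75336 normalized counts in YFP- and 63761 to 71595 in YFP+ TEM libraries. Itgb7 had 35822 to 43383 and 38088 to 50573, below Itgb1 in both fractions. Itgb8 held at most 0.286% in any of the 4 groups.

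**Figure D3:**
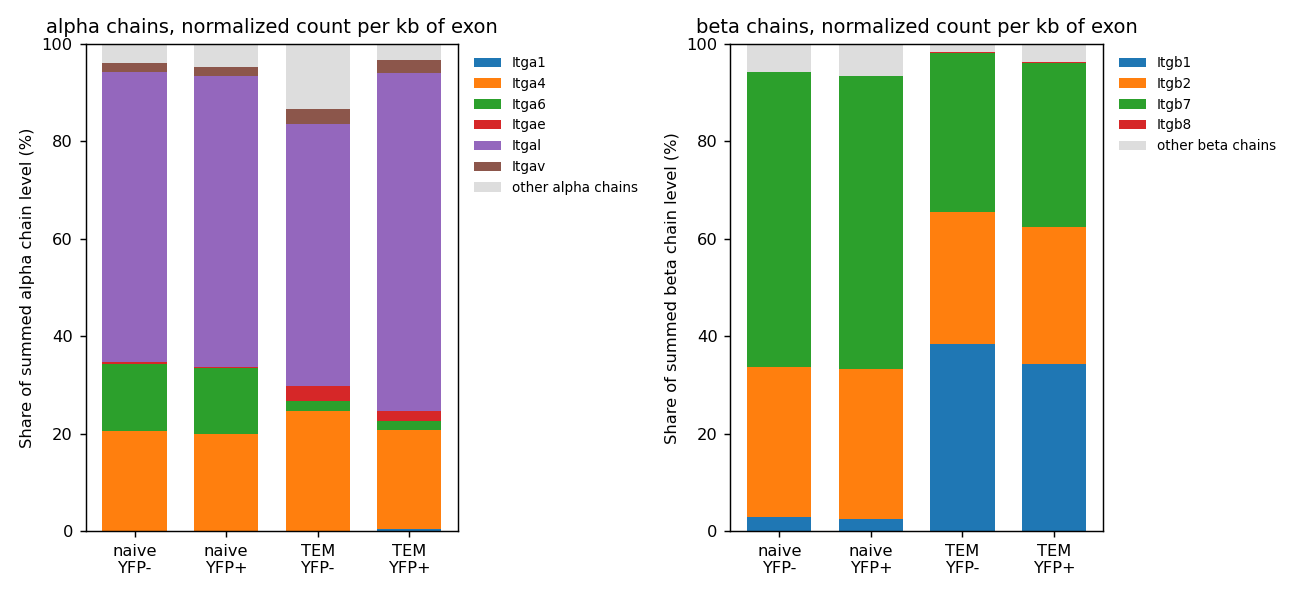
Share (%) of the summed alpha chain level (left) and beta chain level (right) in normalized counts per kb of exon, as the mean of 3 libraries per group; grey is the sum of all other chains in the table. Itgb1 takes 2.92 and 2.59% of the beta chain level in naïve and 38.4 and 34.3% in TEM cells, while Itgal leads the alpha chains in all 4 groups.

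Ratios within a library do not depend on how libraries were scaled. Itgb1 to Itgb7 in normalized counts was 0.072, 0.077 and 0.0638 in YFP- naïve and 1.80, 2.10 and 1.37 in YFP- TEM libraries, a log2 difference of 4.61. In the YFP+ fraction it was 0.0632, 0.074 and 0.0532 against 1.35, 1.88 and 1.32, a difference of 4.57. Each gave an exact two-sided permutation p of 0.1, the smallest that 3 against 3 libraries allow, and 0.178 when adjusted over the 16 ratio comparisons made, so no ratio could pass a threshold of 0.05.

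Between the TEM fractions, the ratio of Itga4 to Itgal separated the libraries. It was 1.10, 0.928 and 0.914 in YFP- and 0.569, 0.755 and 0.548 in YFP+ TEM cells, lower in YFP+ cells in 3 of 3 pairs of equal replicate number, by 0.66 on the log2 scale (exact permutation p = 0.1, adjusted 0.178). Itgae to Itgal was 0.0514, 0.0273 and 0.0392 against 0.0242, 0.0137 and 0.0207, lower by 1.00 on the log2 scale with no overlap (exact permutation p = 0.1, adjusted 0.178). Itgb1 to Itgb2 was lower in YFP+ cells in 3 of 3 pairs of equal replicate number, but its groups overlapped (difference -0.22, exact permutation p = 0.4, adjusted 0.457).

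Of 16 other integrin chains, 15 were in the table and 13 were tested. Between TEM fractions limma and edgeR called 3, of which 1 was higher in YFP+ cells and 2 lower, and DESeq2 also called Itga3. In this comparison limma called 6.97% of all tested genes. Itgb3, a beta chain that pairs with Itgav, had 3854, 2955 and 3816 normalized counts in YFP- TEM and 11994, 6877 and 10450 in YFP+ TEM cells, a rise of 1.44 ± 0.18 (SE) on the log2 scale (adjusted p = 0.000503 in limma). In naïve cells it had 8193 to 9855 in the YFP- and 9720 to 12027 in the YFP+ fraction, so that the YFP- TEM cells were the group with the low level. Itgax and Itgam, chains of myeloid and dendritic cells, were lower in YFP+ TEM cells by 4.15 and 3.55 on the log2 scale (adjusted p = 0.000667 and 0.000132 in limma), together with 9 of the 10 conventional and 7 of the 10 plasmacytoid dendritic cell markers. The plasmacytoid list summed to 19033 to 28529 in YFP- and 12649 to 13516 in YFP+ TEM libraries, and the part of such cells in the Itgax and Itgam values was not tested.

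**Figure D4:**
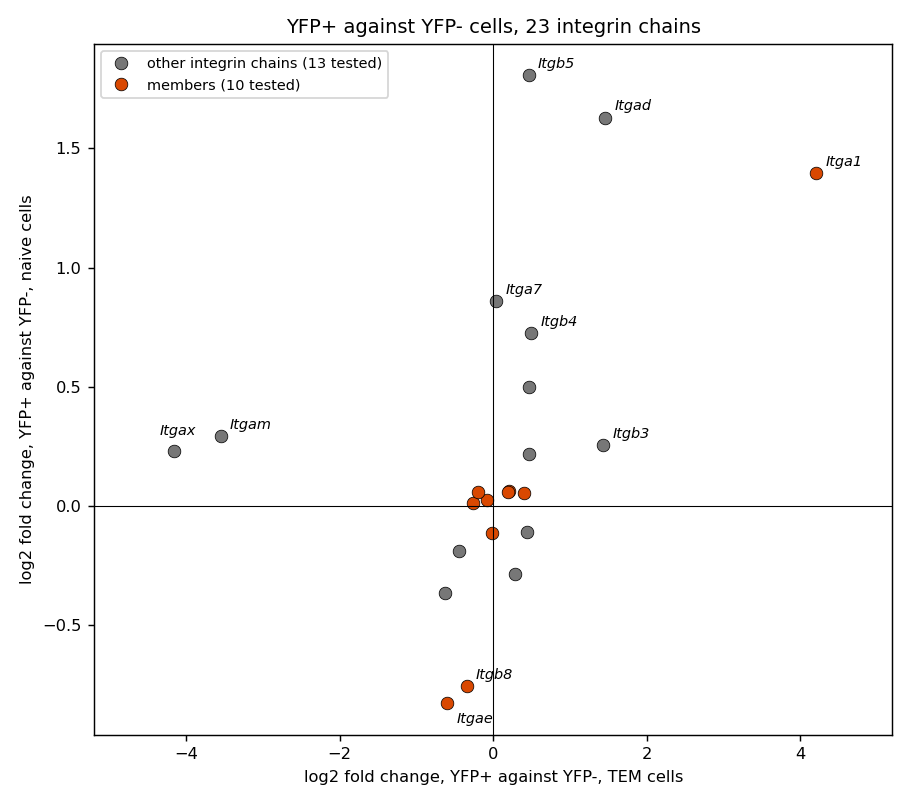
Log2 fold change of YFP+ against YFP- cells in TEM (horizontal) and naïve cells (vertical) for the 10 members (orange) and the 13 other integrin chains tested (grey), from the fit of log2(normalized count + 1). Members other than Itga1, Itgb8 and Itgae lie near the origin; Itga1 (4.21) lies at the right and Itgax (-4.15) and Itgam (-3.55) at the left, and no chain was called on the vertical axis.

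Of 20 ligand genes tested, 13 were higher and 1 lower in YFP- TEM than naïve cells, and 8 higher and 1 lower in the YFP+ fraction. Of all tested genes, 29.9% were higher and 19.9% lower in the YFP- fraction, and 24.7% and 16.7% in the YFP+ fraction. Spp1, which encodes osteopontin, a ligand of Itga4 and Itgav integrins, was at 0 in all 3 YFP- naïve libraries and at 682, 2770 and 728 normalized counts in YFP- TEM and 574, 3480 and 337 in YFP+ TEM libraries. Replicate 2 was the highest of both TEM groups, as it was for Itgb8. Lamc1, a laminin chain, rose by 4.59 and 4.96 on the log2 scale (limma adjusted p = 1.54e-07 and 1.08e-07). Icam2, a ligand of LFA-1, fell by 0.96 and 0.72 (adjusted p = 5.36e-05 and 0.000675 in limma). Cdh1, the E-cadherin that Itgae binds, was the 1 ligand gene called between TEM fractions by limma and edgeR, while DESeq2 also called Lrrc32. Cdh1 was at 655, 393 and 664 in YFP- and 171, 81.8 and 97.9 in YFP+ cells (log2 fold change -2.31, limma adjusted p = 0.0118). In the same comparison 9 of the 10 conventional dendritic cell markers were also lower, and the part of such cells in the Cdh1 values was not tested. One ligand gene of 20 is to be read beside the 6.97% of all tested genes that limma called there.

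Among 20 tested genes that regulate the activation of integrins, inhibitors such as Sharpin and Sipa1 included, 3 rose and 6 fell between naïve and TEM cells in the YFP- fraction, and 1 rose and 3 fell in the YFP+ fraction. Of all tested genes, 49.8% (YFP-) and 41.4% (YFP+) were called. The list did not exceed these shares, so its counts are no result about it as a group. Rasgrp2, the exchange factor that activates Rap1 upstream of LFA-1, fell by 1.72 and 1.57 on the log2 scale (adjusted p = 1.10e-08 and 3.19e-08 in limma), from 20034, 22175 and 20209 to 6504, 5948 and 6520 normalized counts in YFP- cells. Rap1a, a Rap1 GTPase, rose by 0.61 and 0.42 (limma adjusted p = 0.000335 and 0.00557). Tln1 and Fermt3, the talin and kindlin of T cells, were abundant in all groups, at 51885 to 87202 and 13907 to 16210 normalized counts. Skap2, an adaptor of integrin activation in myeloid cells, was the 1 gene of this list called between TEM fractions by limma and edgeR (log2 fold change -1.43, adjusted p = 0.000234 in limma), and DESeq2 also called Tln2. Between these fractions limma called 6.97% of all tested genes.

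Of 23 tested genes that signal from bound integrins, 9 rose and 3 fell in the YFP- and 6 rose and 4 fell in the YFP+ comparison of TEM with naïve cells. These counts are near the background, 49.8% and 41.4% of all tested genes, and are no result about the list as a group. Vcl, the adhesion protein vinculin, rose by 1.48 and 1.14, and the kinase gene Src by 3.13 and 2.92 on the log2 scale (limma adjusted p between 1.21e-05 and 0.000412). Actn1 (alpha-actinin) fell by 2.26 and 2.77 and Ptk2 (focal adhesion kinase) by 1.38 and 2.43 (limma adjusted p between 6.64e-08 and 0.000265). Ptk2 and Syk were the 2 genes of the list that limma called between TEM fractions, lower in YFP+ cells by 0.93 and 2.87 (adjusted p = 0.0254 and 0.00459). That count is near the 6.97% of all tested genes that limma called there. edgeR also called Ptk2b, and DESeq2 Ptk2b and Actn1. In naïve cells none of the other chains, ligand, activation or signalling genes was called between YFP fractions by limma, edgeR or DESeq2. By limma, 3 of the 4 lists had 1 gene with an unadjusted p under 0.05 and the signalling list had 0. The share of all tested genes under that threshold was not computed.

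Likeness of pattern was described by Pearson's r of log2 values over the 12 libraries, across 11692 genes with a symbol and a mean of at least 50 normalized counts. These points fall into 4 groups, so a high r mostly restates the difference between TEM and naïve cells. For Itga1 the nearest were Mmp9 (0.990), Serpinb1a (0.985) and Klrk1 (0.985), which encode a gelatinase, a serine protease inhibitor and the NK receptor NKG2D. For Itgb1 they were Cibar1, Stc2 and Rnf43 (each 0.998), for Itgae Lamc1, Runx2 and D830030K20Rik (0.991 to 0.992), and for Itgb8 Sh3gl3, Fbn2 and Lrfn4 (0.992 to 0.994). Itga6, the member that fell in TEM cells, had Nsg2 (0.993) and Smc6 (0.991) among its nearest. Itgb7, which varied least with the state of the cells, had the lowest leading value, 0.974 with Zfp574.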

How the data were processed

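Total RNA of splenic CD4+ T cells was made into stranded libraries and sequenced. The authors mapped reads to mm10 with DRAGEN, counted them with Rsubread and normalized them with DESeq2, and the deposited signal is these normalized counts, in which each read count was divided by the size factor of its library. The annotation, the strand setting and the tool versions are not given in the sources used here, so reads of Itga1 and Pelo, Itga4 and Cerkl, Itgae and Haspin, which overlap, may not be fully separable. Of the values in each library 100% were whole reads after division by the value of 1 read (tolerance 0.001). Coordinates and lengths came from GRCm38.p6 and GENCODE M21, by Entrez identifier, and 0 columns were left unused.

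Log2(normalized count + 1) of 15587 genes was fitted over all 12 libraries with limma 3.58.1 in R 4.3.3, as a model of 4 group means with a mean-variance trend in eBayes. Adjustment was by Benjamini and Hochberg over all tested genes, and calls needed 0.05 or less. The methods give 3 mice for the sorts, but the labels do not tie libraries to mice, so p-values measure the spread between these samples. Replicate numbers, taken from the labels, correlated in their deviations from the group means by 0.180 to 0.356 between TEM fractions, 0.306 to 0.491 between naïve fractions and 0.137 to 0.232 between YFP- naïve and TEM cells; every pair was above 0.1, so blocked values are given where they change a call. Alternatives were other pseudocounts, filters and scalings, the block, edgeR 4.0.16 and DESeq2 1.42.0 on the recovered reads, the 6 libraries compared, a fold threshold and each library left out. The fits were tested on simulated counts in which only well expressed genes were changed and all genes and groups had the same spread. That test does not cover low counts such as those of Itga1 in naïve cells.

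The members and gene lists were chosen with earlier results of these data known. All members are named; from each list the called genes of largest change, at most 3 per direction and comparison, if their mean was 50 or more normalized counts; and the 3 genes most like a member, for some of the members. A further sorting marker and 1 gene of like pattern are not reported here. Cd44, Cd4, Gpr83, Tln1, Fermt3, Tln2, Sharpin, Sipa1 and overlapping genes were named as markers or for their role, and Lrrc32, Itga3 and Ptk2b because the tools differed on them. The floor was 3 reads per library.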

Additional observations from a re-analysis of the deposited data

Results flagged for a closer look

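No member was flagged. Among the genes of the integrin lists, 6 had a YFP difference that was not the same in TEM and naïve cells by the interaction term of limma, given here as the difference in TEM minus that in naïve cells on the log2 scale. That term called 3.55% of all tested genes. Of the 6 genes, 3 were chains: Itgb3 at 1.18 ± 0.25 (SE; adjusted p = 0.0234), Itgax at -4.39 ± 0.77 (adjusted p = 0.00889) and Itgam at -3.84 ± 0.48 (adjusted p = 0.00248). Itgb3 was 1.44 higher in YFP+ TEM cells and 0.26 higher in YFP+ naïve cells, the latter not called.

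Skap2 had an interaction of -1.27 ± 0.22 (adjusted p = 0.00817 in limma) and Syk of -3.44 ± 0.74 (adjusted p = 0.0234), both lower in YFP+ than YFP- TEM cells. Tln2, a second talin, had one of -3.84 ± 0.96 (adjusted p = 0.0497) at a low level: 116, 91.9 and 81.5 normalized counts in YFP- TEM, 26.3, 21.7 and 27.6 in YFP+ TEM, 5.76, 15.9 and 3.46 in YFP- naïve and 84.1, 8.85 and 34.4 in YFP+ naïve cells. The conventional dendritic cell markers, at 135397 to 282359 in YFP- TEM and 9114 to 23157 in YFP+ TEM libraries, moved in the direction of Itgax, Itgam, Skap2 and Syk, and their part in these values was not tested.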

How the results depend on the processing

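Of the members' fold changes, 823 values under other settings kept direction and side of the threshold, 29 changed sign, 9 passed only under the alternative and 9 were lost. Those that changed sign had not been called, and the cause was not tested unless stated. Between TEM fractions, Itgb1 became 0.0225 with TMM factors and 0.0166 in edgeR, and with 1 library left out it ranged from -0.11 to 0.0608 and Itgb8 from -0.913 to 0.0182. In naïve cells Itga4 became -0.0022 with quantile normalization. With 1 naïve library left out, the YFP difference in naïve cells ranged from -0.0731 to 2.37 for Itga1, -0.106 to 0.113 for Itga4, -0.161 to 0.183 for Itga6, -0.0485 to 0.149 for Itgal, -0.0465 to 0.144 for Itgav, -0.072 to 0.204 for Itgb2 and -0.0648 to 0.174 for Itgb7; the log2 ratio of Itga4 to Itgal there ranged from -0.209 to 0.101. Itgb7 in TEM against naïve cells became 0.159 (YFP-) and 0.262 (YFP+) with quantile normalization, which itself moved the median of all genes to -0.197 and -0.138, and ranged from -0.202 to 0.03996 in YFP+ cells with 1 library left out. The interaction ranged from -0.258 to 0.0852 for Itga6, -0.027 to 0.489 for Itgae and -0.158 to 0.773 for Itgb8.

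Members called between TEM fractions numbered 0 with a pseudocount of 0.1, and 2 (Itga1 and Itgal) with TMM factors, the replicate block, edgeR, DESeq2 and the 6 libraries compared. They numbered 0 to 2 with 1 library left out, the 2 being without YFP+ naïve replicate 2, a setting chosen after seeing the data. All genes called there were 1087, 1869 with the replicate block, 543 when a log2 fold change of at least 2 either way was also asked, and 638 (without YFP- TEM replicate 3) to 1253 with 1 library left out. In naïve cells the 1 gene called became 3 with a pseudocount of 0.1, 2 with TMM factors and in edgeR, 6 with the block, 12 in DESeq2, 0 with the 6 libraries or the fold threshold, and 0 to 1 with 1 library left out. The fold threshold left 2750 of 7769 genes and 4 of 9 members in TEM against naïve YFP- cells and 2020 of 6453 genes and 4 of 9 members in YFP+ cells. The interaction gave 554 genes, 890 with the block, 838 in DESeq2 and 279 to 531 with 1 library left out (346 without YFP- TEM replicate 1 and 279 without replicate 3); 1 member, Itga1, passed with a pseudocount of 5 and without YFP+ naïve replicate 2.

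The replicate block changed no other call of a member than those given for Itgal and Itgb7. Between YFP+ naïve and TEM cells same-numbered libraries correlated by 0.204, -0.0199 and 0.0561, not all with their own number best, so there they share only a number; the block gave 7954 genes there against 6453. Itga1 in naïve cells rests on 0 to 29 reads per library.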
